A study of Homo sapiens with 24 samples.

Results

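The snoRNA host genes are genes whose introns carry small nucleolar RNAs (snoRNAs). They were taken here as every GENCODE 29 gene named SNHG plus a number, together with GAS5, DANCR, EPB41L4A-AS1, ZFAS1, RACK1, EEF1B2 and TAF1D, which gave 32 of 57721 summed genes. Of these 32 entries, 29 passed the filter on low counts and could be tested. SNHG18, SNHG27 and 1 of the 2 entries named SNHG28 were below it, so counts of members cover the 29 tested ones only. SNHG27 and SNHG28 carry the SNHG name, and GENCODE 29 places no snoRNA inside them. RNA of the human colorectal cancer line HCT116 was sequenced as 24 libraries, 3 in each of 8 groups. Without transfection these were TNRC6A-/-, TNRC6B-/-, TNRC6AB-/- and wild-type (WT) cells. After transfection they were TNRC6AB-/- and WT cells, each with siTNRC6C or with siGL2, a duplex matching no target. In the study's account TNRC6A was disrupted by a frameshift and TNRC6B by a large deletion, and siTNRC6C is a pool of duplexes against TNRC6C. The knockout lines came from a supplier and the WT cells from another. Whether each knockout line is 1 clone is not given in the sources used here. Nor is it given whether the knockouts were made from this WT stock, so genotype and source of the line cannot be told apart. Nothing states that replicates were separate cultures, so p-values measure the spread between these libraries, which may be technical.

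Small nucleolar RNAs guide chemical modification and processing of ribosomal and spliceosomal RNA. In vertebrates most of them are cut from the introns that are removed when a host RNA is spliced, while the joined exons leave as a separate RNA. In many SNHG genes the exons code for no long protein, and the spliced RNA is read briefly by ribosomes and removed by nonsense-mediated decay, so its level follows decay and translation as well as transcription. GAS5 is such a host, and its spliced RNA is known to accumulate when growth or translation stops. Many hosts start with the pyrimidine run of terminal oligopyrimidine (TOP) RNAs, the class that holds the messages for ribosomal proteins and translation factors. TNRC6 proteins link Argonaute to the enzymes that shorten poly(A) tails.

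The starts of 5 noncoding hosts are shown because they differ in this feature. Each window runs from 10 bases before to 20 bases after the start in RefSeq (GRCh38.p14), and capitals mark the run searched for: a first transcribed base C followed by C or T through at least the fifth base.
ZFAS1, chr20:49278632-49278661, plus strand: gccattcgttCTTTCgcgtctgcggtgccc
SNHG5, chr6:85678714-85678743, minus strand: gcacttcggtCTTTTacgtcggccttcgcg
SNHG19, chr16:2155339-2155368, minus strand: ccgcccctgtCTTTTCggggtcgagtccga
SNHG12, chr1:28581854-28581883, minus strand: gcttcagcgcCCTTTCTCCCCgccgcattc
DANCR, chr4:52712384-52712413, plus strand: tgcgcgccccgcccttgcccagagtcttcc
Of 27 member symbols with a RefSeq start, 9 (33.3%) had the run, against 1404 of 27305 symbols in the whole table (5.14%). The same run stood at the start of 48 of 68 ribosomal protein genes (70.6%) and 20 of 107 other protein-coding snoRNA hosts (18.7%). DANCR carries no such run at this start, and neither do the RefSeq starts of SNHG1 and of GAS5, the last of which lies upstream of its GENCODE 29 start. A match describes these letters only.

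The files held 28144290 to 42689320 reads per library. TNRC6B stood at 7.77 TPM (a level scaled by transcript length and library size) in TNRC6AB-/- cells and 20.5 TPM in WT, and at 7.88 TPM in TNRC6AB-/- siTNRC6C and 16.4 TPM in WT siGL2. TNRC6C was 6.45 TPM in TNRC6AB-/- siTNRC6C, against 18.3 TPM in TNRC6AB-/- siGL2 and 6.75 TPM in WT siGL2, so in the silenced double knockout it was near the WT siGL2 level and not far below it. TNRC6A RNA, which a frameshift need not remove, was 20.9 TPM in TNRC6A-/- and 31.1 TPM in WT cells, and 35.7 TPM in TNRC6AB-/- siTNRC6C and 22.3 TPM in WT siGL2. Of 8 colon epithelial markers, 7 were above 1 TPM in every library, VIL1 being the exception. Some epithelial markers differed between these cells without transfection. CDH1 averaged 5.18 TPM in TNRC6AB-/- and 26.9 TPM in WT, EPCAM 44.9 TPM in TNRC6AB-/- and 129.8 TPM in WT. KRT8 averaged 529.9 TPM in TNRC6AB-/- and 359.5 TPM in WT, and CLDN4 46.3 TPM and 48.6 TPM. EPCAM went the other way under siGL2, at 104.4 TPM in TNRC6AB-/- siGL2 and 89.6 TPM in WT siGL2. CDH1 was 7.49 TPM in TNRC6AB-/- siGL2 and 10.9 TPM in WT siGL2, and KRT8 514.2 TPM and 348.0 TPM. Of 8 markers of other cells, COL1A1 alone was above 1 TPM in every library. The summed level of these 8 was 18.2 to 31.9 TPM in TNRC6AB-/-, against 12.5 to 17.3 TPM in WT, and 25.3 to 28.3 TPM in TNRC6AB-/- siTNRC6C and 14.0 to 19.7 TPM in TNRC6AB-/- siGL2, against 6.79 to 11.4 TPM in WT siGL2. COL1A1 and COL3A1 made up most of it in the double knockout, while CD3E and CDH5 stayed under 0.1 TPM in every library, and the part of both marker sets in the results was not tested. Members took 0.184% to 0.213% of reads in TNRC6AB-/- libraries and 0.347% to 0.389% in WT, 0.202% to 0.206% in TNRC6AB-/- siTNRC6C and 0.25% to 0.255% in TNRC6AB-/- siGL2 libraries against 0.314% to 0.319% in WT siGL2. Mean fragments were 165 to 171 bases in TNRC6A-/- libraries and 181 to 189 in WT, and this difference moves with every TNRC6A-/- comparison; its part was not tested.

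Most hosts were lower in cells that lack both TNRC6A and TNRC6B. Against WT, 24 of the 29 members tested fell in TNRC6AB-/- cells and 1 rose, with a median log2 fold change of -0.92, which is 52.7% of the WT level. Over all 24153 genes tested, 12.3% fell and 17.2% rose and the median was 0.01. Calls are edgeR quasi-likelihood tests at a Benjamini-Hochberg adjusted p under 0.05, whatever the fold, and levels are in CPM, read counts scaled to the size of the library. Where the CPM of groups are said not to overlap, here and below, the share of all genes without overlap is not given. Fewer cells or less RNA per cell cannot be told apart in these bulk samples.

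GAS5, which hosts 11 snoRNAs on chromosome 1, had 136, 159 and 162 CPM in TNRC6AB-/- libraries against 262, 457 and 272 CPM in WT. All TNRC6AB-/- values lay below all WT values, and the WT group was spread by replicate 2. The log2 fold change was -1.12 ± 0.23 (standard error, edgeR adjusted p = 0.000587). ZFAS1, an RNA antisense to ZNFX1 that hosts the 3 SNORD12 genes, had 71.4, 88.2 and 103 CPM in TNRC6AB-/- against 156, 370.3 and 167 CPM in WT, and fell by 1.40 ± 0.30 (edgeR adjusted p = 0.00108). EPB41L4A-AS1, host of SNORA13, had 9.93, 11.4 and 13.3 CPM in TNRC6AB-/- against 26.2, 43.8 and 21.4 CPM in WT, and fell by 1.40 ± 0.27 (edgeR adjusted p = 0.000337). Both genes showed the same high WT replicate 2 as GAS5, and the groups did not overlap. SNHG1, host of 8 box C/D snoRNAs, was tighter, at 88.9, 88.6 and 86.3 CPM in TNRC6AB-/- against 202, 164 and 175 CPM in WT, and fell by 1.04 ± 0.15 (edgeR adjusted p = 9.33e-06).

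DANCR, a noncoding RNA named for its effect on differentiation and host of SNORA26, had 21.8, 20.9 and 23.0 CPM in TNRC6AB-/- against 42.3, 23.7 and 38.3 CPM in WT. Here WT replicate 2 was the low library, close to the TNRC6AB-/- values, and the fall was 0.66 ± 0.15 on the log2 scale (edgeR adjusted p = 0.00175). The coding hosts followed. RACK1, a scaffold protein of the small ribosomal subunit, had 503, 546 and 679.9 CPM in TNRC6AB-/- against 846, 865 and 943 CPM in WT and fell by 0.62 ± 0.15 (edgeR adjusted p = 0.00276). EEF1B2, an exchange factor of translation elongation, had 187, 189.7 and 273 CPM in TNRC6AB-/- against 402, 431 and 453 CPM in WT and fell by 0.98 ± 0.18 (edgeR adjusted p = 0.000219). TAF1D, a subunit of the RNA polymerase I initiation factor and host of 8 snoRNAs, had 180.5, 191 and 228 CPM in TNRC6AB-/- against 274, 297 and 316 CPM in WT and fell by 0.57 ± 0.13 (edgeR adjusted p = 0.00137). None of these 3 coding hosts overlapped between the groups, and how many of all genes show such a gap is not given.

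The smallest adjusted p-values in TNRC6AB-/- against WT belonged to SNHG26, SNHG12, SNHG16 and SNHG3. SNHG26, host of SNORD93, had 4.0, 2.87 and 2.5 CPM in TNRC6AB-/- against 12.8, 12.6 and 11.4 CPM in WT, the lowest share of its WT level among members (25.4%, log2 fold change -1.98 ± 0.15, edgeR adjusted p = 1.75e-09). SNHG16, host of the SNORD1 genes, had 117, 130.0 and 189 CPM in TNRC6AB-/- against 413, 302 and 375 CPM in WT, and fell by 1.32 ± 0.15 (edgeR adjusted p = 5.43e-07). SNHG12, whose 4 snoRNAs include SNORA44, had 26.9, 28.1 and 28.9 CPM in TNRC6AB-/- against 52.0, 48.8 and 58.5 CPM in WT, and fell by 0.92 ± 0.10 (edgeR adjusted p = 4.58e-07). SNHG3, host of SNORA73A and SNORA73B, had 93.4, 79.3 and 75.9 CPM in TNRC6AB-/- against 149, 140.4 and 129 CPM in WT, and fell by 0.75 ± 0.09 (edgeR adjusted p = 1.44e-06). These 4 hosts were clear of the WT libraries in all replicates, which their choice by adjusted p favours, so the gap adds no support. The share of all genes with such a gap is not given.

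SNHG7 went the other way. It had 32.9, 40.1 and 47.0 CPM in TNRC6AB-/- against 31.2, 20.9 and 33.0 CPM in WT, with overlap at the edge (log2 fold change 0.50 ± 0.16, edgeR adjusted p = 0.0195). Its call was lost without WT replicate 2 (0.32, edgeR adjusted p = 0.132), without TNRC6AB-/- replicate 2 or 3 (edgeR adjusted p = 0.0828 and 0.126), and in 3 other settings given at the end. The 4 members not called were SNHG6, SNHG11, SNHG14 and SNHG28, with log2 fold changes between -0.18 and 0.38. SNHG8, host of SNORA24, had 25.0, 31.8 and 37.6 CPM in TNRC6AB-/- against 75.4, 102 and 66.8 CPM in WT, and the falls not described singly ran between -1.71 (SNHG25) and -0.38 (SNHG20). Without WT replicate 2, 23 members fell.

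**Figure D1:**
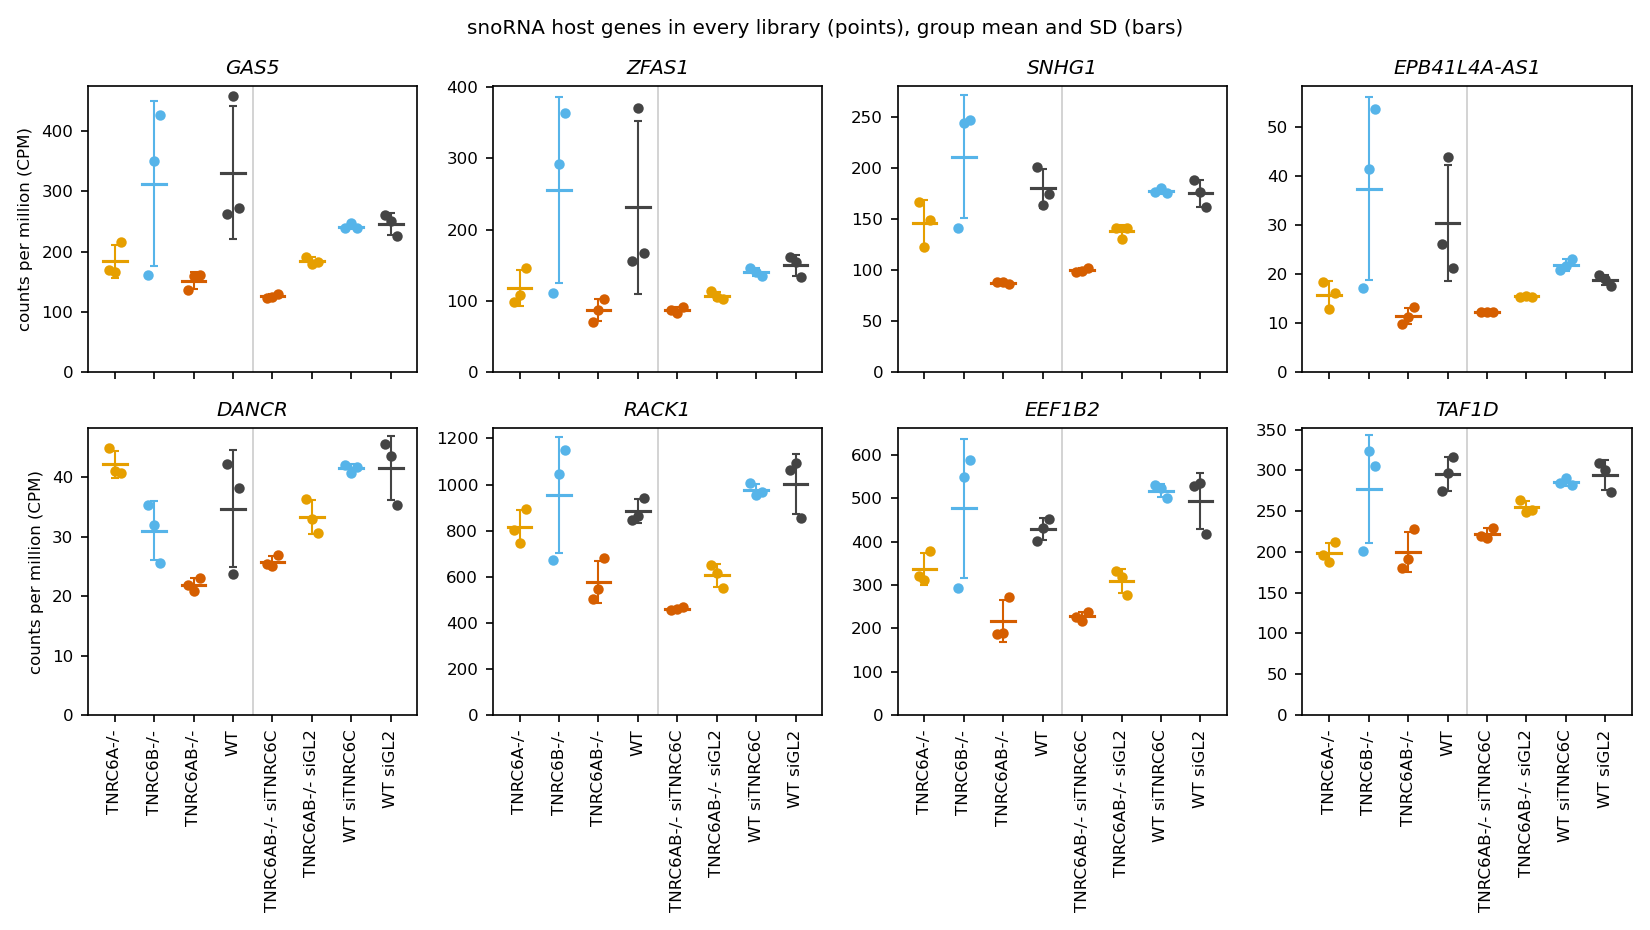
Read counts scaled to library size (CPM) of 8 hosts in every library (points, 3 per group), with the group mean (line) and SD (bars); untransfected groups stand left of the grey line and transfected groups right of it. All TNRC6AB-/- libraries lay below all WT libraries in each panel, while GAS5, ZFAS1 and EPB41L4A-AS1 were spread widely in TNRC6B-/- and WT.

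The single knockouts changed fewer hosts. In TNRC6A-/- cells 8 members fell and none rose against WT, where 5.47% of all genes tested fell and 8.52% rose; 15 members had an unadjusted p under 0.05, DESeq2 also called no rise, and the members' median was -0.31. SNHG15, host of SNORA9, had 20.3, 18.9 and 21.5 CPM in TNRC6A-/- against 31.5, 34.1 and 31.8 CPM in WT and fell by 0.68 ± 0.14 (edgeR adjusted p = 0.00132). TAF1D had 196, 188 and 213 CPM in TNRC6A-/- against the WT values above and fell by 0.57 ± 0.13 (edgeR adjusted p = 0.00354). Both were below every WT library, SNHG15 having been chosen by its adjusted p. The SNHG15 call was lost without the transcripts that keep its snoRNA (-0.63, edgeR adjusted p = 0.144).

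GAS5, ZFAS1 and EPB41L4A-AS1 fell in TNRC6A-/- cells by calls that were lost without single libraries, among them WT replicate 2. GAS5 had 170.1, 166 and 215 CPM in TNRC6A-/- libraries (log2 fold change -0.85 ± 0.23, edgeR adjusted p = 0.0148), and without WT replicate 2 the change was -0.54 (edgeR adjusted p = 0.122). ZFAS1 had 98.7, 109 and 147 CPM in TNRC6A-/- (-0.97 ± 0.30, edgeR adjusted p = 0.0336), and without WT replicate 2 -0.45 (edgeR adjusted p = 0.321). EPB41L4A-AS1 had 18.4, 13.0 and 16.2 CPM in TNRC6A-/- (-0.94 ± 0.27, edgeR adjusted p = 0.0203), and without WT replicate 2 -0.58 (edgeR adjusted p = 0.162). GAS5 and ZFAS1 also lost the call without TNRC6A-/- replicate 1 or 2 (edgeR adjusted p 0.0638 to 0.135), and EPB41L4A-AS1 without TNRC6A-/- replicate 2 or 3 (edgeR adjusted p = 0.0962 and 0.0575). SNHG26 had 9.09, 7.87 and 8.67 CPM in TNRC6A-/- and fell by 0.52 ± 0.14 (edgeR adjusted p = 0.0167). SNHG8 and SNHG22 were the other members that fell. DANCR, SNHG1, RACK1 and EEF1B2 were not called, with log2 fold changes of 0.28, -0.30, -0.12 and -0.35. With 1 library left out, 2 to 8 members fell in TNRC6A-/- cells, with 2 without TNRC6A-/- replicate 2, 4 without TNRC6A-/- replicate 1 and 5 without WT replicate 2.

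In TNRC6B-/- cells 2 members fell and none rose by edgeR, against 0.94% and 2.2% of all genes tested, with 5 members at an unadjusted p under 0.05 and no rise by DESeq2 either; the members' median was -0.08. SNHG3 had 104.2, 118 and 97.9 CPM in TNRC6B-/- libraries and fell by 0.38 ± 0.09 (edgeR adjusted p = 0.0198), and SNHG26 had 9.18, 9.28 and 6.58 CPM in TNRC6B-/- and fell by 0.55 ± 0.14 (edgeR adjusted p = 0.0324). Neither call held in a fit of the 6 libraries compared. TNRC6B-/- replicate 1 stood apart in several hosts, and also as a library. Retained-intron transcripts took 5.74% of its reads, against 3.72% and 3.38% in TNRC6B-/- replicates 2 and 3. Ribosomal protein genes took 4.48% of its reads, against 6.17% and 5.96%. TNRC6AB-/- replicate 1 likewise had 5.15% of reads in retained-intron transcripts, against 3.86% and 3.52% in replicates 2 and 3. The part of these library differences was not tested. GAS5 had 161, 349.9 and 426 CPM across the 3 TNRC6B-/- libraries, ZFAS1 111, 291 and 364 CPM, SNHG8 46.0, 127 and 120.3 CPM, and EPB41L4A-AS1 17.2, 41.6 and 53.7 CPM. The lower value was replicate 1 in each of these 4. SNHG1 had 142, 245 and 247 CPM there, TAF1D 202, 324 and 305 CPM, RACK1 672, 1044 and 1149 CPM, EEF1B2 293, 549 and 589.7 CPM, and DANCR, with the reverse order, 35.4, 32.0 and 25.6 CPM. Without TNRC6B-/- replicate 1, 4 members rose and 4 fell, with no share over all genes given for that fit.

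Silencing of TNRC6C in WT cells gave no call among the members. TNRC6C RNA averaged 3.18 TPM in WT siTNRC6C and 6.75 TPM in WT siGL2, so in these libraries it was lowered and not removed. By edgeR none of the 29 members rose or fell in WT siTNRC6C against WT siGL2 (background 0.397% and 0.534%). Of them, 3 had an unadjusted p under 0.05, and DESeq2 called 1 member as rising (background 1.57%). The median was 0.02. GAS5 had 238, 246 and 239 CPM in WT siTNRC6C against 260.5, 250.2 and 226 CPM in WT siGL2, ZFAS1 147, 140.4 and 135 CPM in WT siTNRC6C against 161, 155 and 134 CPM in WT siGL2, SNHG1 177, 181 and 176 CPM in WT siTNRC6C against 188, 177 and 162 CPM in WT siGL2, and DANCR 42.1, 40.8 and 41.7 CPM in WT siTNRC6C against 45.6, 43.5 and 35.4 CPM in WT siGL2. These groups overlapped. The largest departure at a level above 5 CPM was that of SNHG26, at 12.7, 13.3 and 13.1 CPM in WT siTNRC6C against 8.77, 9.23 and 9.5 CPM in WT siGL2 (log2 fold change 0.51 ± 0.14, edgeR adjusted p = 0.0862), named after its values were seen.

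With siTNRC6C in the double knockout, most hosts were lower than in WT siGL2. In TNRC6AB-/- siTNRC6C against WT siGL2, 24 members fell and none rose, with a median of -0.74; of all genes tested 25.2% fell and 17% rose. By edgeR 25 members had an unadjusted p under 0.05, and DESeq2 called 24 falls and no rise (background 23.9% and 17.5%). Mean TPM, which carries no TMM scaling, was not lower in TNRC6AB-/- siTNRC6C for 7 of these 24 members (TAF1D, DANCR, SNHG15, SNHG3, SNHG6, SNHG22 and SNHG4). Counts scaled from TPM and then by TMM gave 20 falls (background 22.6%). SNHG19, host of SNORD60, had 4.58, 4.26 and 4.33 CPM in TNRC6AB-/- siTNRC6C against 22.9, 22.0 and 17.6 CPM in WT siGL2, 21.1% of that level (log2 fold change -2.25 ± 0.17, edgeR adjusted p = 7.26e-10). SNHG25, host of SNORD104 and SNORA50C, had 2.52, 3.5 and 3.08 CPM in TNRC6AB-/- siTNRC6C against 20.9, 15.2 and 11.5 CPM in WT siGL2 (-2.38 ± 0.24, edgeR adjusted p = 7.4e-08). SNHG26 had 3.10, 3.06 and 3.58 CPM in TNRC6AB-/- siTNRC6C against the WT siGL2 values above (-1.50 ± 0.15, edgeR adjusted p = 5.41e-08). All 3 had a wide gap between the groups, which their choice by adjusted p favours.

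RACK1 had 454, 458 and 468 CPM in TNRC6AB-/- siTNRC6C against 1062, 1094 and 853 CPM in WT siGL2 (-1.13 ± 0.15, edgeR adjusted p = 3.05e-06). EEF1B2 had 227, 218 and 238 CPM in TNRC6AB-/- siTNRC6C against 528, 535 and 418 CPM in WT siGL2 (-1.12 ± 0.18, edgeR adjusted p = 3.69e-05). GAS5 had 122, 125 and 129.6 CPM (-0.97 ± 0.23, edgeR adjusted p = 0.00157), SNHG1 98.9, 99.7 and 102 CPM (-0.81 ± 0.15, edgeR adjusted p = 0.000118) and DANCR 25.3, 25.0 and 26.9 CPM (-0.69 ± 0.15, edgeR adjusted p = 0.000803) in TNRC6AB-/- siTNRC6C libraries. By CPM all 5 lay below every WT siGL2 library, and the share of all genes with such a gap is not given. SNHG1 overlapped by TPM, at 92.2 to 97.6 in TNRC6AB-/- siTNRC6C and 95.7 to 111.0 in WT siGL2. TAF1D had 219, 217 and 229.9 CPM in TNRC6AB-/- siTNRC6C against 309, 301 and 273 CPM in WT siGL2 (-0.41 ± 0.13, edgeR adjusted p = 0.0122). By TPM, DANCR ran 48.2 to 52.7 in TNRC6AB-/- siTNRC6C and 45.6 to 47.6 in WT siGL2, and TAF1D averaged 172 TPM in TNRC6AB-/- siTNRC6C and 164 TPM in WT siGL2, both in the opposite direction to the CPM values. With counts scaled from TPM both were called as falling (-0.50 and -0.54, edgeR adjusted p = 0.0108 and 0.000568). ZFAS1 had 86.9, 83.0 and 91.1 CPM in TNRC6AB-/- siTNRC6C (-0.79 ± 0.30, edgeR adjusted p = 0.039), a call that was lost when any of 5 of the 6 libraries compared was left out (edgeR adjusted p 0.0719 to 0.104). EPB41L4A-AS1, at 12.3, 12.4 and 12.3 CPM in TNRC6AB-/- siTNRC6C against 19.8, 19.1 and 17.7 CPM in WT siGL2, was lower in every library and was not called (-0.61 ± 0.27, edgeR adjusted p = 0.0677).

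**Figure D2:**
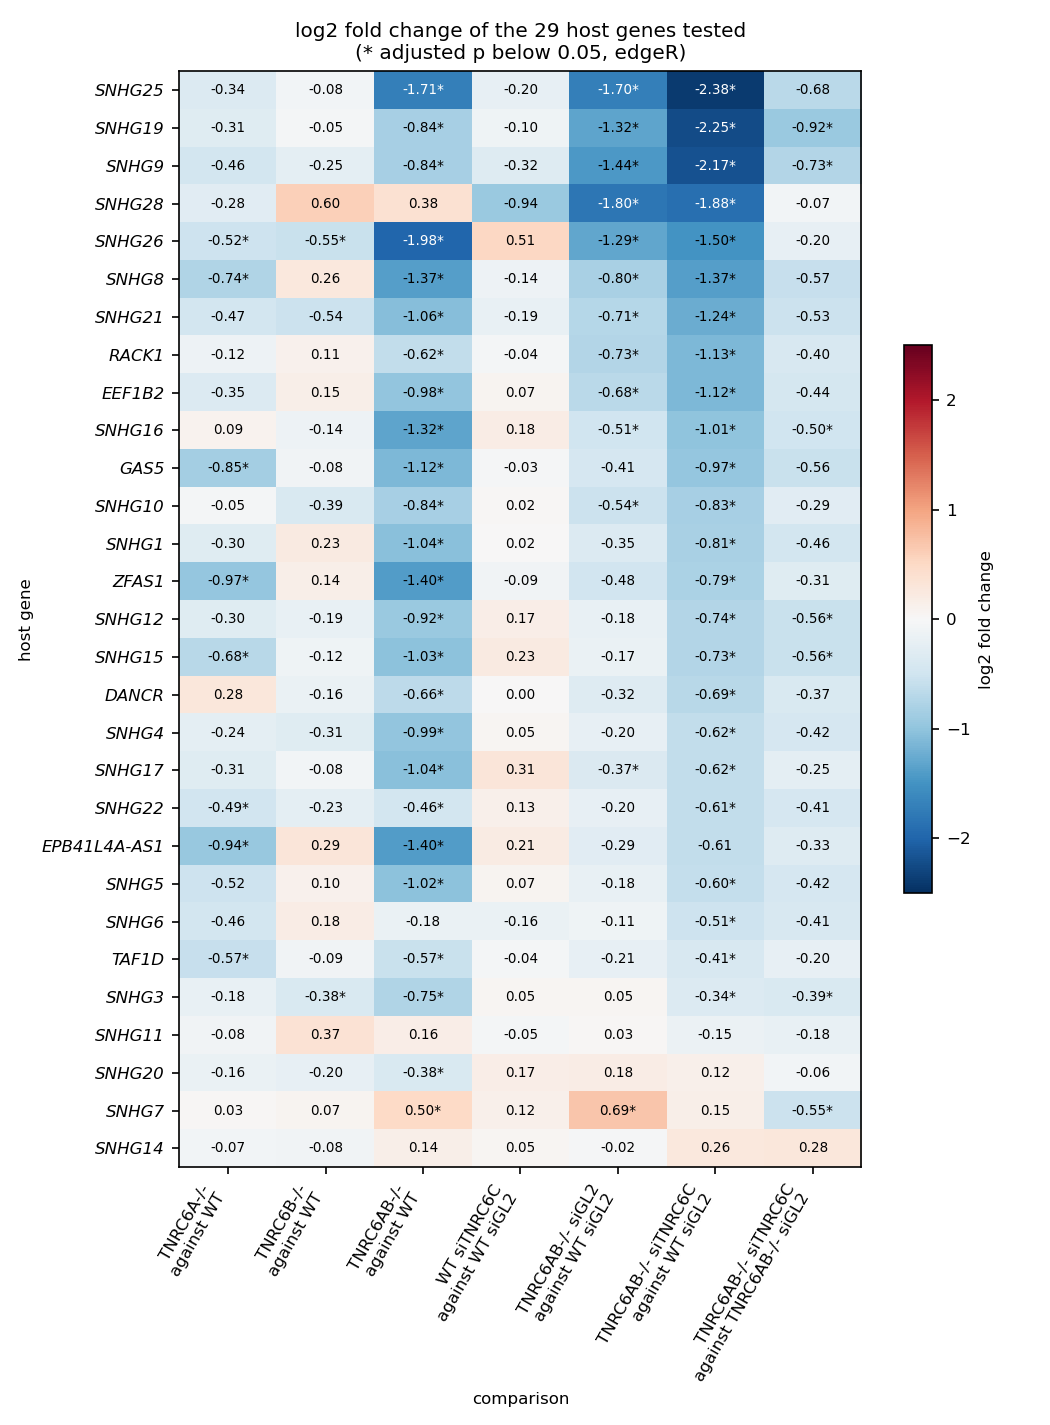
Log2 fold changes of the 29 hosts tested (rows, ordered by TNRC6AB-/- siTNRC6C against WT siGL2) in the 7 comparisons (columns), with the value printed and an asterisk where the edgeR adjusted p was under 0.05. The columns of TNRC6AB-/- against WT and TNRC6AB-/- siTNRC6C against WT siGL2 hold 24 falls each, and the column of siTNRC6C in WT cells holds no call.

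Under the control duplex the picture was smaller. In TNRC6AB-/- siGL2 against WT siGL2, 12 members fell and 1 rose, with a median of -0.35, while 12.5% of all genes tested fell and 9.17% rose. This comparison shares its WT siGL2 libraries with that of TNRC6AB-/- siTNRC6C. With 1 library left out, 7 to 11 members fell, with 7 without TNRC6AB-/- siGL2 replicate 3. SNHG17, called as falling by counts (-0.37), averaged 16.2 TPM in TNRC6AB-/- siGL2 and 14.9 TPM in WT siGL2. SNHG26 had 3.63, 3.48 and 4.12 CPM in TNRC6AB-/- siGL2 against 8.77, 9.23 and 9.5 CPM in WT siGL2 (-1.29 ± 0.15, edgeR adjusted p = 9.88e-07). SNHG19 had 8.52, 7.73 and 8.75 CPM in TNRC6AB-/- siGL2 (-1.32 ± 0.16, edgeR adjusted p = 2.38e-06) and SNHG25 5.16, 4.72 and 4.75 CPM (-1.70 ± 0.24, edgeR adjusted p = 1.26e-05). These hosts, chosen by their adjusted p, were below every WT siGL2 library.

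RACK1 had 651, 614 and 552 CPM in TNRC6AB-/- siGL2 and fell by 0.73 ± 0.15 (edgeR adjusted p = 0.00101), and EEF1B2 had 331, 319 and 277 CPM in TNRC6AB-/- siGL2 and fell by 0.68 ± 0.18 (edgeR adjusted p = 0.00894). SNHG7 had 53.0, 55.2 and 52.8 CPM in TNRC6AB-/- siGL2 against 35.8, 34.7 and 29.4 CPM in WT siGL2, with no overlap, and rose (0.69 ± 0.16, edgeR adjusted p = 0.00241). That call was lost with counts scaled from TPM (0.52, edgeR adjusted p = 0.0502) and without transcripts that keep a snoRNA (0.49, edgeR adjusted p = 0.0708). GAS5 had 191, 179.6 and 183 CPM, ZFAS1 114, 106 and 103 CPM, SNHG1 142, 131 and 142 CPM, EPB41L4A-AS1 15.4, 15.6 and 15.4 CPM, DANCR 36.4, 33.0 and 30.7 CPM, and TAF1D 264, 248 and 251 CPM in TNRC6AB-/- siGL2 libraries. None of these 6 was called, at log2 fold changes of -0.21 to -0.48, and DANCR overlapped the WT siGL2 libraries.

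The change between TNRC6AB-/- and WT cells was itself compared with and without transfection. By the interaction term of the same fit, the log2 fold change under siGL2 minus that without transfection was above 0 for 9 members (called as rising, background 2.22%) and below 0 for 1 (called as falling, background 6.5%). Among the 9 were SNHG3 (difference of log2 fold changes 0.80 ± 0.13, edgeR adjusted p = 0.000531), SNHG12 (0.74 ± 0.15, edgeR adjusted p = 0.003), SNHG15 (0.86 ± 0.19, edgeR adjusted p = 0.00676), SNHG16 (0.81 ± 0.21, edgeR adjusted p = 0.0176), SNHG1 (0.69 ± 0.21, edgeR adjusted p = 0.0378) and SNHG26 (0.68 ± 0.21, edgeR adjusted p = 0.0455). SNHG4, SNHG17 and SNHG20 completed the 9. Under siGL2 itself SNHG3 and SNHG20 had log2 fold changes of 0.05 and 0.18 and were not called. The 1 on the other side was SNHG28, with log2 fold changes of -1.80 under siGL2 and 0.38 without transfection, an entry read at a mean of 0.596 CPM in the siGL2 libraries and 0.921 CPM in the untransfected ones. With counts scaled from TPM, which take up transcript lengths, 2 members were called as rising and none as falling (background 1.74% and 4.58%). DESeq2 called 11 as rising and 1 as falling (background 3.23% and 7.07%). With 1 library left out, 4 to 10 were called as rising, with 4 without TNRC6AB-/- siGL2 replicate 3 or WT replicate 1, and SNHG28 was not called without TNRC6AB-/- replicate 2. Transfected libraries had longer fragments, 196 to 213 bases, than untransfected ones other than TNRC6A-/-, 181 to 191 bases, and lipid, duplex and fragment length cannot be told apart here.

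**Figure D3:**
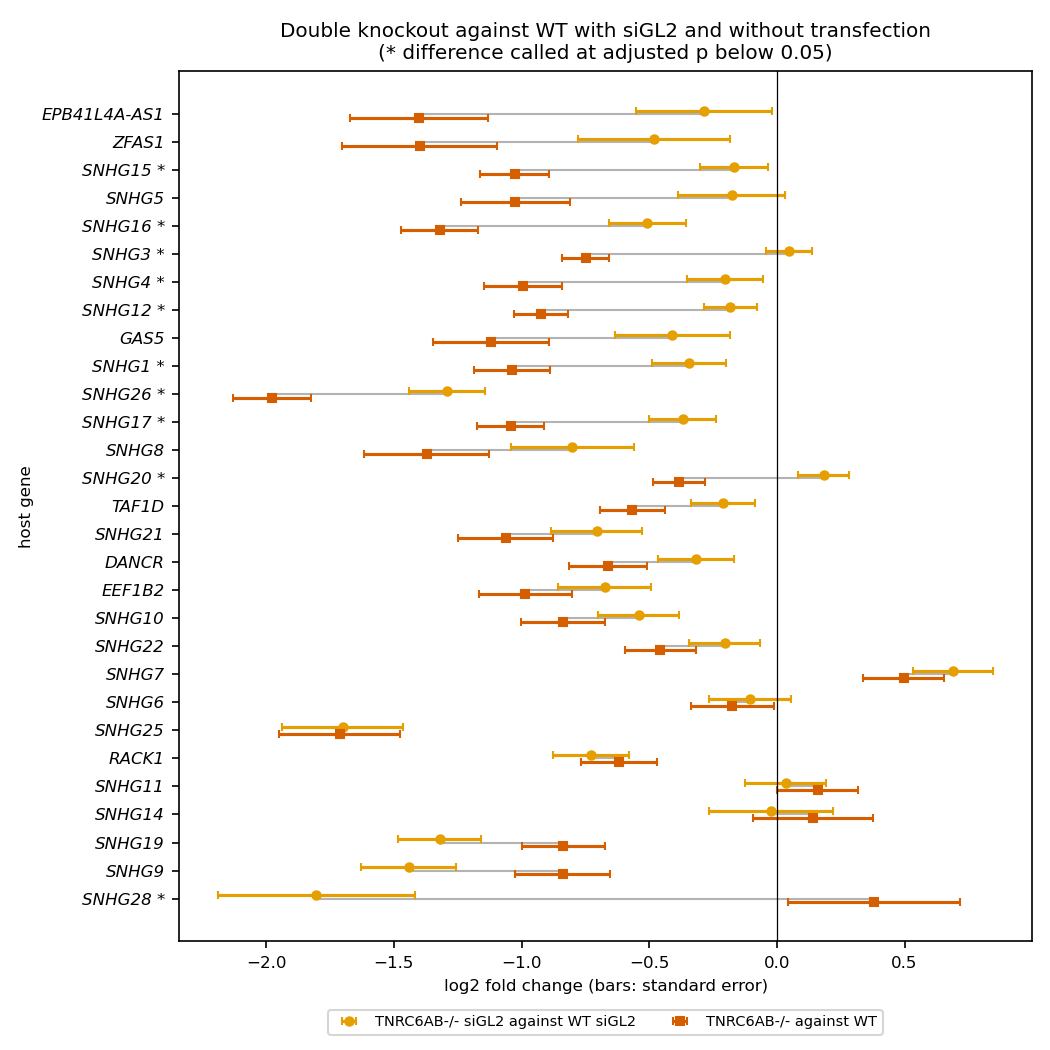
Log2 fold change (points, with standard error) of each host in TNRC6AB-/- siGL2 against WT siGL2 (circles) and TNRC6AB-/- against WT (squares), ordered by their difference, with an asterisk on the 10 hosts whose difference was called. Most circles lie right of their squares; SNHG28 lies far to the left, and SNHG19, SNHG9 and SNHG25 are low in both.

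Silencing of TNRC6C inside the double knockout lowered 7 members, with none raised, against 4.38% and 2.19% of all genes tested. By edgeR 18 members had an unadjusted p under 0.05, and DESeq2 called 10 falls and no rise (background 6.36% and 2.79%). Of 29 members, 28 had a log2 fold change below 0 and the median was -0.41. With any 1 of the 6 libraries left out, 2 to 4 members were called as falling. SNHG19 had 4.58, 4.26 and 4.33 CPM in TNRC6AB-/- siTNRC6C against 8.52, 7.73 and 8.75 CPM in TNRC6AB-/- siGL2 (-0.92 ± 0.17, edgeR adjusted p = 0.00204). SNHG12 had 27.5, 28.7 and 29.7 CPM in TNRC6AB-/- siTNRC6C against 41.8, 41.9 and 42.8 CPM in TNRC6AB-/- siGL2 (-0.56 ± 0.10, edgeR adjusted p = 0.00245). SNHG3 had 94.9, 92.5 and 92.5 CPM in TNRC6AB-/- siTNRC6C against 121, 115 and 131 CPM in TNRC6AB-/- siGL2 (-0.39 ± 0.09, edgeR adjusted p = 0.0141), and SNHG15 14.2, 14.8 and 15.1 CPM in TNRC6AB-/- siTNRC6C against 21.1, 21.5 and 22.5 CPM in TNRC6AB-/- siGL2 (-0.56 ± 0.14, edgeR adjusted p = 0.0152). No library overlapped in these 4, which were chosen by their adjusted p. SNHG7, SNHG9 and SNHG16 were the other 3, with log2 fold changes of -0.55, -0.73 and -0.50.

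The calls on SNHG3 and SNHG15 there were lost when any of 5 of the 6 libraries was left out (edgeR adjusted p 0.0526 to 0.0779 where lost). A fit of those 6 libraries alone called 23 members as falling, where it called 22.9% of all genes. The interaction between siTNRC6C and genotype called 2 members as falling (background 2.13%) and none as rising (background 0.903%). By edgeR 11 had an unadjusted p under 0.05, and DESeq2 called 7 falls (background 4.78%). SNHG12 had a difference of log2 fold changes of -0.73 ± 0.15 (edgeR adjusted p = 0.0101) and SNHG15 of -0.79 ± 0.19 (edgeR adjusted p = 0.0262), with SNHG15 at 29.1, 27.7 and 29.1 CPM in WT siTNRC6C against 24.4, 26.2 and 22.5 CPM in WT siGL2.

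Hosts that start with a pyrimidine run and hosts that do not had like medians. In TNRC6AB-/- against WT the 8 tested members with the run all fell, with a median of -0.95, and of the 17 without it 13 fell and 1 rose, with a median of -0.84. In TNRC6AB-/- siTNRC6C against WT siGL2, 8 of 8 with the run fell (median -0.76) and 12 of 17 without it (median -0.69). The 2 kinds were not tested against each other, and the letter rule does not show which hosts behave as TOP RNAs.

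The other gene lists place the hosts beside the RNAs they share features with. Of 85 cytosolic ribosomal protein genes tested, 75 fell in TNRC6AB-/- against WT (median -0.69), 78 in TNRC6AB-/- siGL2 against WT siGL2 (median -0.75) and 82 in TNRC6AB-/- siTNRC6C against WT siGL2 (median -1.20). Of 14 TOP messages outside the ribosome, 7, 12 and 14 fell, with medians of -0.44, -0.56 and -0.96. In the members the medians of the same 3 comparisons ran -0.92, -0.35 and -0.74. By these medians the hosts lay nearer to WT siGL2 than both lists under siGL2, and further from WT without transfection. This difference between lists was not tested.

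Genes that build snoRNPs, the protein particles around snoRNAs, also fell. Of 18 tested, 14 fell in TNRC6AB-/- against WT and 15 in TNRC6AB-/- siTNRC6C against WT siGL2, while 4 fell in TNRC6AB-/- siGL2 against WT siGL2 (median -0.21); none rose in any of these. FBL, the methyltransferase of box C/D particles, fell by 1.31 ± 0.15 in TNRC6AB-/- against WT and 1.87 ± 0.16 in TNRC6AB-/- siTNRC6C against WT siGL2 (edgeR adjusted p = 7.33e-07 and 3.27e-09), and NOP56, a core protein of the same particles, fell in these by 0.62 ± 0.11 and 0.60 ± 0.11 (edgeR adjusted p = 0.000207 and 0.00018). Protein-coding hosts outside the members behaved less uniformly. Of 127 tested, 45 fell and 18 rose in TNRC6AB-/- against WT (median -0.06), 23 fell and 12 rose in TNRC6AB-/- siGL2 against WT siGL2 (median -0.09), and 58 fell and 14 rose in TNRC6AB-/- siTNRC6C against WT siGL2 (median -0.23).

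Nonsense-mediated decay factors showed no common direction. Of 17 tested, 3 rose and 3 fell in TNRC6AB-/- against WT (background 17.2% and 12.3%). In TNRC6AB-/- siGL2 against WT siGL2 none rose and 3 fell (background 9.17% and 12.5%). In TNRC6AB-/- siTNRC6C against WT siGL2 3 rose and 5 fell (background 17% and 25.2%). These few counts lay near the shares over all genes, which also apply to the decay targets below. UPF2, a core factor, fell in the comparisons without transfection and with siTNRC6C (-0.44 ± 0.09 and -0.66 ± 0.09), EIF4A3, the helicase of the exon junction complex, fell in that with siTNRC6C (-1.14 ± 0.13), and UPF1, the central helicase, had log2 fold changes of 0.06 ± 0.13 and -0.05 ± 0.13. Of 8 decay targets that host no snoRNA, 3 fell in TNRC6AB-/- against WT and 3 in TNRC6AB-/- siTNRC6C against WT siGL2. In TNRC6AB-/- siGL2 against WT siGL2 1 fell, and none rose in any of these. ATF4 and NAT9 fell without transfection and with siTNRC6C, by 0.78 ± 0.22 and 0.97 ± 0.22 for ATF4. UPP1 fell without transfection (-2.33 ± 0.54) and had a log2 fold change of 1.06 ± 0.52 with siTNRC6C, which was not called.

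**Figure D4:**
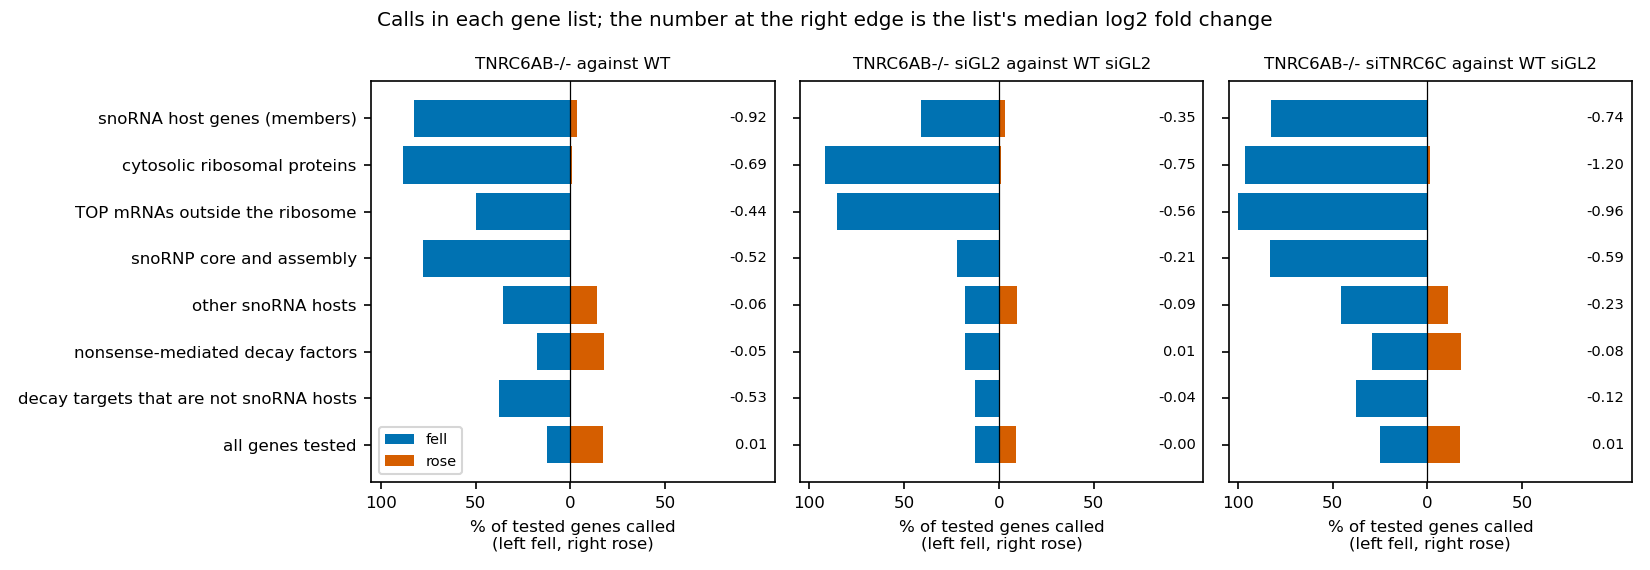
Share of tested genes called as falling (left of 0) and rising (right of 0) in each list for the 3 comparisons of TNRC6AB-/- cells with their WT, with each list's median log2 fold change at the right edge. The hosts, ribosomal proteins and TOP messages extend mainly to the left, the decay factors to both sides.

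Transcript shares show which forms of a host made up its level. Of 231 member transcripts in 26 genes tested, with each gene's total as offset, 9 moved in TNRC6AB-/- against WT (background 0.618% of 86246 transcripts) and 18 in TNRC6AB-/- siTNRC6C against WT siGL2 (background 3.4%). There were 21 in TNRC6A-/- against WT (background 3.76%) and 2 in TNRC6AB-/- siGL2 against WT siGL2 (background 0.637%). None moved by edgeR in TNRC6B-/- against WT (background 0.0545%), in WT siTNRC6C against WT siGL2 (background 0.00696%) or in TNRC6AB-/- siTNRC6C against TNRC6AB-/- siGL2 (background 0.0452%), where 16, 9 and 13 had an unadjusted p under 0.05. Such shares are Salmon's estimates of how reads divide among overlapping forms. In a fit of the 6 libraries compared, 5 moved in TNRC6A-/- against WT and none in TNRC6AB-/- against WT.

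In TNRC6AB-/- against WT, 5 of the 9 transcripts that moved were forms of TAF1D. TAF1D-201, a form annotated for nonsense-mediated decay that keeps SNORA25 and SNORA32 within exons, held 17.8%, 20.3% and 24.3% of TAF1D TPM in TNRC6AB-/- against 9.10%, 10.8% and 11.04% in WT (log2 change of share 0.86, edgeR adjusted p = 0.000165). TAF1D-213, a retained-intron form with SNORA32 and SNORA1, averaged 10.2% in TNRC6AB-/- and 5.14% in WT (edgeR adjusted p = 0.00458). The remaining TAF1D forms that moved lost share, and most of them were also annotated for decay. TAF1D-205, a decay-annotated form, averaged 1.75% in TNRC6AB-/- and 8.57% in WT (log2 change of share -2.41, edgeR adjusted p = 0.00768). TAF1D-220, also decay-annotated, averaged 0.44% in TNRC6AB-/- and 3.55% in WT (-3.18, edgeR adjusted p = 0.0153). The share of TAF1D-203, a protein-coding form, changed by -0.98 (edgeR adjusted p = 0.0184). All TAF1D forms that keep a snoRNA together made up 59.4% ± 6.62 in TNRC6AB-/- and 41.6% ± 6.09 in WT (SD, n = 3 each; exact permutation test, two-sided, p = 0.1, the smallest that 3 against 3 allows). In TNRC6AB-/- siTNRC6C the sum was 52.9% ± 0.656 against 46.3% ± 0.730 in WT siGL2 (SD, n = 3 each; exact permutation test, two-sided, p = 0.1). Within TAF1D, TAF1D-202, a shorter decay-annotated form, averaged 11.6% in TNRC6AB-/- siTNRC6C and 18.3% in WT siGL2 and its share fell (edgeR adjusted p = 0.00965).

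DANCR-203, a 336-base retained-intron form of DANCR, held 31.0%, 34.6% and 34.8% of DANCR TPM in TNRC6AB-/- against 17.5%, 19.8% and 22.0% in WT (0.95 on the log2 scale, edgeR adjusted p = 0.00291). In TNRC6AB-/- siTNRC6C it held 32.2%, 34.7% and 33.3% against 20.3%, 21.0% and 20.2% in WT siGL2 (0.89, edgeR adjusted p = 0.0019). Neither pair overlapped. SNHG6-205 averaged 32.8% of SNHG6 in TNRC6AB-/- and 43.4% in WT, and its share fell (edgeR adjusted p = 0.0139). SNHG8-205 averaged 6.66% of SNHG8 in TNRC6AB-/- siTNRC6C and 14.4% in WT siGL2 and fell (edgeR adjusted p = 0.000376), as did SNHG4-204, at 17.0% of SNHG4 in TNRC6AB-/- siTNRC6C and 31.3% in WT siGL2 (edgeR adjusted p = 0.0146).

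In TNRC6A-/- cells the named transcripts were others. RACK1-224, a form of RACK1 annotated for decay, averaged 10.1% in TNRC6A-/- and 16.1% in WT (edgeR adjusted p = 0.000553). Within SNHG16, SNHG16-202 averaged 55.4% in TNRC6A-/- and 42.0% in WT while SNHG16-206 averaged 17.1% in TNRC6A-/- and 26.4% in WT (edgeR adjusted p = 0.00489 and 0.00444). SNHG20-201 averaged 34.0% in TNRC6A-/- and 48.5% in WT (edgeR adjusted p = 0.00264); its length in the files differs from that in GENCODE 29, whose model contains SCARNA16. GAS5 forms that keep a snoRNA made up 48.1% ± 5.35 of GAS5 TPM in TNRC6AB-/- and 39.5% ± 12.7 in WT (SD, n = 3 each; exact permutation test, two-sided, p = 0.5), and 56.8% ± 1.37 in TNRC6AB-/- siTNRC6C and 51.5% ± 2.17 in WT siGL2 (SD, n = 3 each; exact permutation test, two-sided, p = 0.1). Reads of a mature snoRNA and of a host form that contains it cannot be told apart.

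**Figure D5:**
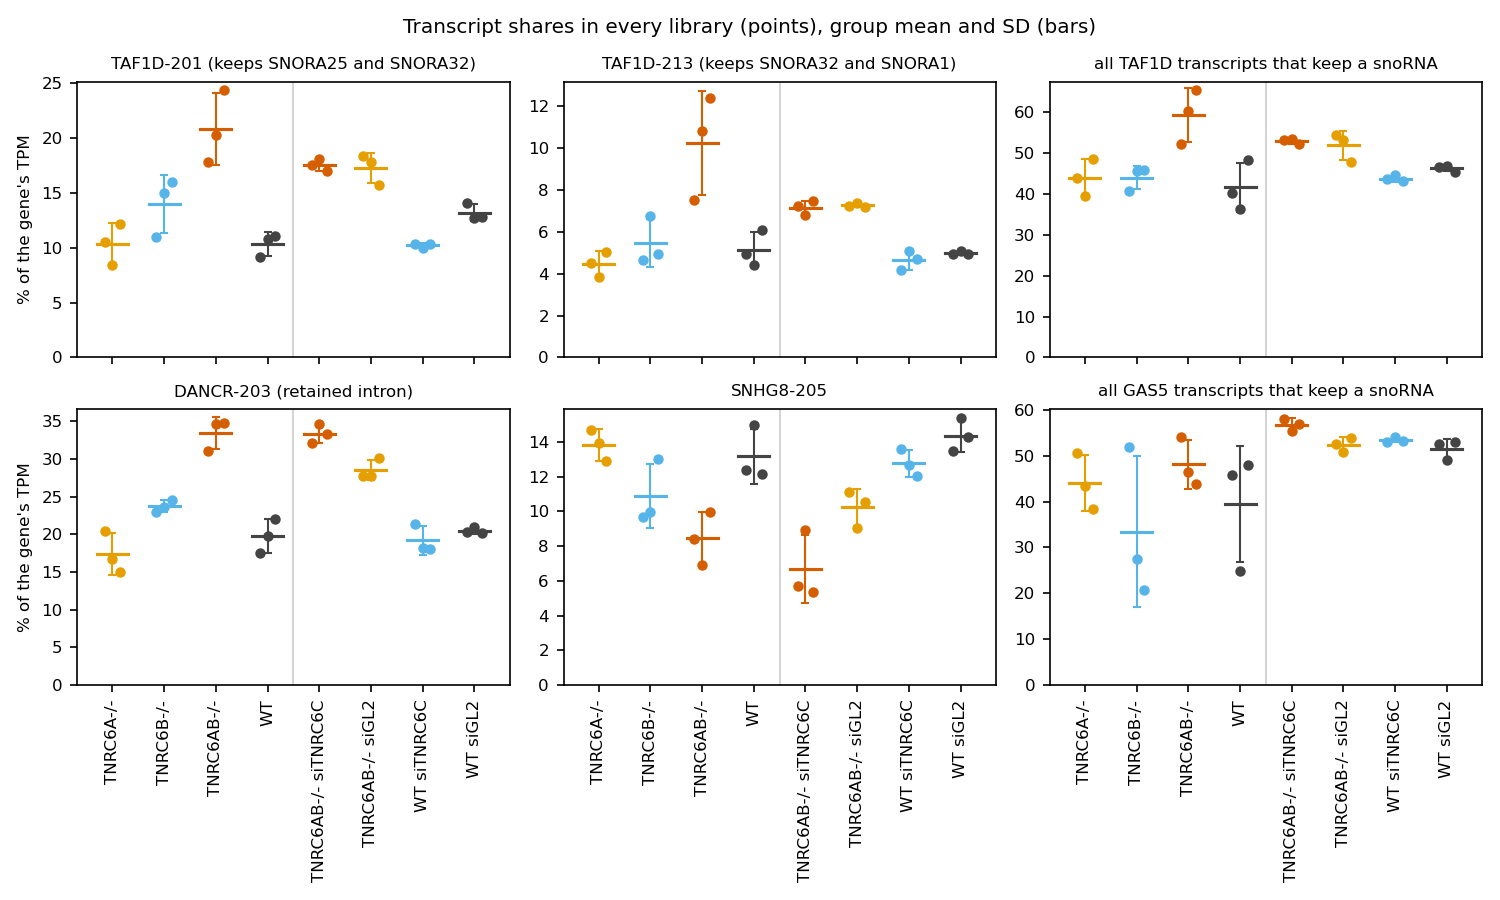
Percent of a host gene's TPM held by named transcripts, or by all transcripts that keep a snoRNA, in every library (points), with group mean (line) and SD (bars). TAF1D-201, TAF1D-213 and DANCR-203 are higher in TNRC6AB-/- than in WT, and SNHG8-205 is lower in TNRC6AB-/- siTNRC6C than in WT siGL2.

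The resident snoRNAs were counted as entries of their own. The members hold 141 GENCODE snoRNA entries, of which 36 were tested, most of them shorter than a library fragment and so poorly captured. In TNRC6AB-/- against WT, 5 entries rose and 4 fell (background 17.2% and 12.3%), and in TNRC6A-/- against WT 1 rose and 8 fell (background 8.52% and 5.47%). In TNRC6AB-/- siGL2 against WT siGL2, 7 fell and none rose (background 12.5% and 9.17%), and in TNRC6AB-/- siTNRC6C against WT siGL2, 24 fell and none rose (background 25.2% and 17%). The 6 entries with a mean of at least 5 CPM over all libraries are described, a bound set after their values were seen. SNORA73B, which lies in SNHG3 and is 204 bases long, rose in TNRC6AB-/- against WT (log2 fold change 0.94, edgeR adjusted p = 0.045), where its host fell, and fell in TNRC6AB-/- siTNRC6C against WT siGL2 (-1.50, edgeR adjusted p = 0.00154). SNORA73A, in the same host, was not called in TNRC6AB-/- against WT (0.73, edgeR adjusted p = 0.119) and fell in TNRC6AB-/- siTNRC6C against WT siGL2 (-1.33, edgeR adjusted p = 0.00367); as the 2 are near copies, their reads may be divided between them. SCARNA13, the 275-base RNA in SNHG10, rose in TNRC6AB-/- against WT (0.78, edgeR adjusted p = 0.00543), and the SNORA17B entry in SNHG7 rose there with its host (0.99, edgeR adjusted p = 0.0016). Neither was called in TNRC6AB-/- siTNRC6C against WT siGL2 (-0.35 and -0.17, edgeR adjusted p = 0.174 and 0.558). SNORD104, in SNHG25, fell in both of these comparisons (-0.998 and -1.35, edgeR adjusted p = 0.000335 and 6.83e-06). SNORA71A, in SNHG17, was not called in TNRC6AB-/- against WT (0.12, edgeR adjusted p = 0.808) and fell in TNRC6AB-/- siTNRC6C against WT siGL2 (-1.70, edgeR adjusted p = 0.000109).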

How the data were processed

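RNA-seq libraries were made by the study from HCT116 cells, 3 in each of 8 groups named in the labels. The study's account and the labels give different RNA extraction methods. The authors quantified transcripts with Salmon 0.11.0 and deposited, for 199612 transcripts, estimated counts of reads (28144290 to 42689320 per library) and TPM as the deposited length-scaled level; whether strand was used in that step is not given in the sources used here, so hosts annotated as antisense, such as ZFAS1 and SNHG7, may share reads with their partner. Transcripts were matched to GENCODE 29 genes (199368 matched; the 244 others held at most 0.0544% of a library's reads) and summed. SNHG12 had 12 of its 17 annotated transcripts and SNHG20 10 of 18.

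Rounded gene sums of all 24 libraries were fitted with edgeR 4.0.16 in R 4.3.3 (TMM scaling, filterByExpr, 8 group means, 16 residual degrees of freedom, quasi-likelihood test), with Benjamini-Hochberg adjustment over 24153 genes. Transcripts were fitted in the same way with the gene total as offset. Shares of transcripts that keep a snoRNA were compared by exact permutation. CPM use TMM-scaled library sizes. The scripts were tested on simulated data.

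Members and gene lists were chosen with earlier results of these data known. GAS5, ZFAS1, DANCR, EPB41L4A-AS1, RACK1, EEF1B2, TAF1D and SNHG1 were always given, and in each comparison up to 4 members that rose and 4 that fell with the smallest adjusted p at a mean of at least 5 CPM. Transcripts were named the same way, up to 4 in each comparison, if they held at least 10% of their gene's TPM in a group. Alternatives were DESeq2 1.42.0, median-of-ratios scaling, no filter, fits of only the libraries compared, counts scaled from TPM, counts without transcripts that keep a snoRNA, a replicate block, each library left out in turn, and, added after seeing the data, transcript shares from TPM.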

Additional observations from a re-analysis of the deposited data

Results flagged for a closer look

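In 12 results the change of a host differed between conditions by the interaction term of the edgeR fit. The effect of siTNRC6C in TNRC6AB-/- cells minus that in WT cells was -0.73 on the log2 scale for SNHG12 and -0.79 for SNHG15.

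The change of TNRC6AB-/- against WT under siGL2 minus the same change without transfection was 0.86 for SNHG15, 0.81 for SNHG16, 0.80 for SNHG3, 0.79 for SNHG4, 0.74 for SNHG12, 0.69 for SNHG1, 0.68 for SNHG26, 0.67 for SNHG17 and 0.57 for SNHG20. For SNHG28 it was -2.19, at the low level given above.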

How the results depend on the processing

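In fits of only the libraries compared, 5 members fell in TNRC6A-/- against WT (background 3.25%) and 0 in TNRC6B-/- (background 0.131%). In TNRC6AB-/- against WT 0 rose (background 9.19%). In WT siTNRC6C against WT siGL2, 3 rose and 1 fell (background 7.72% and 7.74%). In TNRC6AB-/- siTNRC6C, 2 rose against WT siGL2 (background 31%) and 23 fell against TNRC6AB-/- siGL2 (background 22.9%). In the interaction of siTNRC6C with genotype 19 fell (background 20.7%). In such fits 5 and 0 member transcripts moved in TNRC6A-/- and TNRC6AB-/- against WT. With counts scaled from TPM, 0 fell in TNRC6B-/- (background 0.682%). There 0 rose in TNRC6AB-/- against WT (background 14.7%) and 0 in TNRC6AB-/- siGL2 against WT siGL2 (background 7.4%). In TNRC6AB-/- siTNRC6C against TNRC6AB-/- siGL2 3 fell (background 2.73%), and 0 fell in the siTNRC6C interaction (background 0.917%). In the transfection interaction 2 rose and 0 fell (background 1.74% and 4.58%). Without transcripts that keep a snoRNA, 0 rose in TNRC6AB-/- against WT, 1 rose in TNRC6AB-/- siTNRC6C against WT siGL2, 3 fell against TNRC6AB-/- siGL2 and 1 in the siTNRC6C interaction. DESeq2 gave 1 rise in WT siTNRC6C (background 1.57%) and 7 falls in the siTNRC6C interaction (background 4.78%). Without a filter 11 fell in TNRC6AB-/- siTNRC6C against TNRC6AB-/- siGL2 and 5 in the siTNRC6C interaction. For the fits without a filter and without transcripts that keep a snoRNA, no share over all genes is given. By reads in place of TPM the TAF1D share that keeps a snoRNA was 7.77 points higher in TNRC6AB-/- siTNRC6C than in WT siGL2, and 6.57 points by TPM. The causes were not tested.

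With each library left out in turn, falls numbered 2 to 8 in TNRC6A-/-, 0 to 4 in TNRC6B-/-, 23 to 24 in TNRC6AB-/- against WT, 7 to 11 in TNRC6AB-/- siGL2 and 21 to 24 in TNRC6AB-/- siTNRC6C against WT siGL2, 2 to 4 in TNRC6AB-/- siTNRC6C against TNRC6AB-/- siGL2, 1 to 2 in the siTNRC6C interaction and 0 to 2 in the transfection interaction. Rises numbered 0 to 4 in TNRC6B-/-, 0 to 1 in TNRC6AB-/- and 4 to 10 in the transfection interaction. Moved member transcripts numbered 9 to 16 in TNRC6A-/-, 0 to 6 in TNRC6B-/-, 7 to 10 in TNRC6AB-/-, 2 to 3 in TNRC6AB-/- siGL2, 5 to 17 in TNRC6AB-/- siTNRC6C against WT siGL2 and 0 to 1 against TNRC6AB-/- siGL2. No share over all genes or transcripts is given for the fits with a library left out.

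Of 41 named gene results none reversed and 15 lost the call under some alternative. Those not given above were SNHG1 in TNRC6AB-/- siTNRC6C against WT siGL2 and SNHG12 against TNRC6AB-/- siGL2 without transcripts that keep a snoRNA (edgeR adjusted p = 0.0954 and 0.078), and SNHG26 in TNRC6A-/- and EEF1B2 in TNRC6AB-/- siGL2 with a library left out. Same-numbered replicates did not pair throughout (correlations from -0.152 to 0.354), although in TNRC6A-/- against WT each sample correlated best with its own number. In TNRC6AB-/- siGL2 against WT siGL2 both replicates 3 correlated at 0.354 and both replicates 1 at 0.219. There replicates 1 and 3 correlated at -0.348 and -0.227, and TNRC6AB-/- siGL2 replicate 1 with WT siGL2 replicate 2 at 0.214. Replicate 3 of both groups had more reads in retained-intron transcripts (4.50% and 4.33%) than the others (3.28% to 3.75%). With a replicate block, 8 members fell in TNRC6A-/-, 2 in TNRC6B-/- and 24 in TNRC6AB-/- against WT (background 5.05%, 0.828% and 11.9%). Against WT siGL2, 11 fell in TNRC6AB-/- siGL2 and 24 in TNRC6AB-/- siTNRC6C (background 12.1% and 24.8%). In TNRC6AB-/- siTNRC6C against TNRC6AB-/- siGL2 6 fell (background 3.64%), and no named call was lost. The 3 libraries a group and 16 residual degrees of freedom limit the precision.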
